A study of Trachemys scripta elegans with 3 samples.

Results

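Livers of red-eared slider turtles (*Trachemys scripta elegans*) kept at 15 psu (practical salinity units, the saltier of both saltwater pools) were compared with livers of turtles kept at 5 psu. The comparison covered unigenes, which are assembled transcripts grouped by gene, whose best match in the NCBI protein database (NR) named a turtle or alligator genus (Chrysemys, Chelonia, Pelodiscus, Trachemys or Alligator) and whose level was at least 5 FPKM (fragments mapped to a transcript, scaled to its length and to the size of the library) in both libraries. Of 205118 rows read, 31658 named one of these genera, and 7548 passed the floor in both libraries. They are called members below. The floor kept out 1302 unigenes that reached 5 FPKM at 15 psu only and 1608 that reached it at 5 psu only.

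The 15 psu group, the 5 psu group and the freshwater group at 0 psu each held 3 healthy turtles that were 2 years old, and each group stayed in its pool for 30 days and was fasted for 24 h before sampling. RNA from the 3 livers of a group was mixed into 1 library, so 3 libraries stood for 9 animals. There are no replicates, no value has an error, and no difference below was tested. The depth behind a value is unknown because only FPKM was used.

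The liver makes most plasma proteins, including albumin, transferrin, complement and the protease inhibitors of the alpha-2-macroglobulin and serpin families. During an acute phase response it adds serum amyloid A and related secreted proteins. It also converts ammonia to urea, a nitrogenous end product that some turtles retain as an osmolyte in salt water. Immunoglobulins in liver RNA come from B cells and plasma cells lodged in or passing through the tissue, while the class II molecules that present antigen are made mainly by macrophages and other presenting cells.

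Most members differed little between the libraries. The ratio given throughout is log2 of (FPKM at 15 psu + 0.1) over (FPKM at 5 psu + 0.1), and a ratio of at least 2-fold is called a rise or a fall at 15 psu. Of the 7548 members, 129 (1.71%) rose and 128 (1.70%) fell, and 22 in each direction passed 4-fold. These shares are the background for each count of rises and falls in a group below. The median log2 ratio was -0.00, the quartiles were -0.19 and 0.20, and 88.6% of members lay within 1.5-fold. Among the 143 members averaging 500 FPKM or more, 4.20% rose and 1.40% fell, whereas 0.31% rose and 0.43% fell among the 2551 members averaging between 5 and 10 FPKM, where the floor in both libraries limits the fold that can be reached. Members made up 50.3% of the summed FPKM in the 15 psu library, against 47.6% in the 5 psu and 48.0% in the 0 psu library. Most member names come from other species, and only 15 members were matched to Trachemys. Families of near-identical copies (immunoglobulins, MHC, zinc fingers, C-type lectins) can be split or merged by assembly, so the value of any one unigene in them is uncertain. Unigenes that share an assembly number can be parts of 1 gene. This holds for the fish-egg lectin-like pair and for the avidin-like unigenes that rose.

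**Figure D1:**
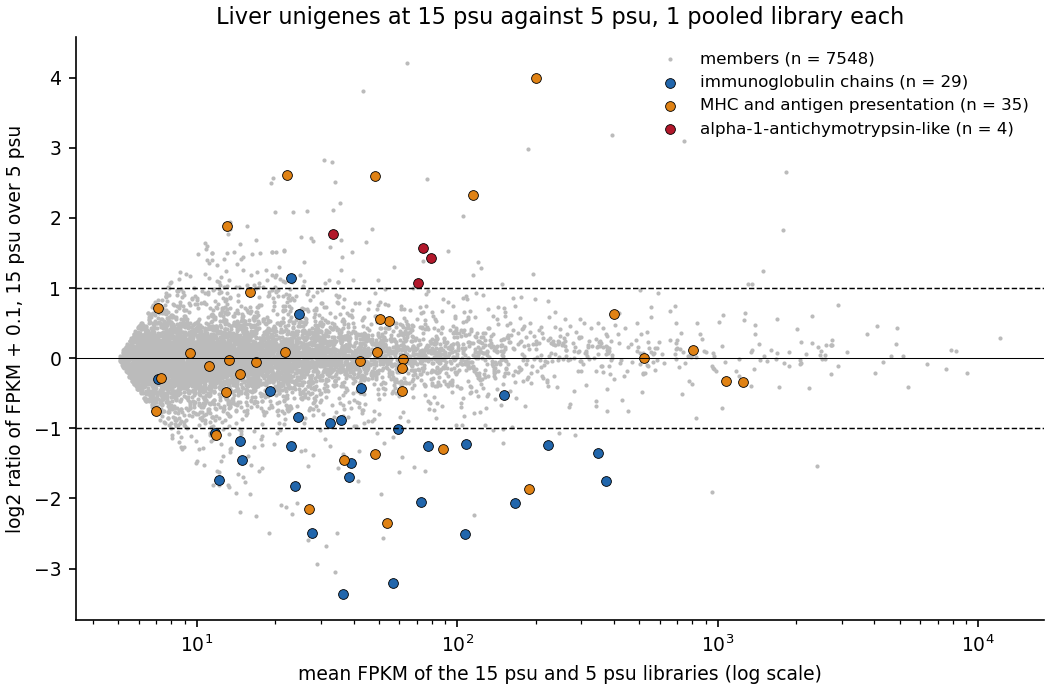
Each point is 1 of the 7548 members, with its mean FPKM at 15 and 5 psu on a log axis and its log2 ratio of 15 psu over 5 psu, and dashed lines mark 2-fold. Immunoglobulin chains lie mostly below the lower line, the 4 alpha-1-antichymotrypsin-like unigenes lie above the upper line, and MHC and antigen presentation unigenes lie on both sides.

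Hepatocyte genes were abundant in both libraries. The highest member at 15 psu was ferritin light chain, the iron store of the cell, with 13312 FPKM at 15 psu and 10904 FPKM at 5 psu. Lipocalin-like, ferritin heavy chain, apolipoprotein A-II, alpha-fetoprotein and transferrin also stood among the 10 highest. None of these 6 passed 2-fold. Albumin, summed over its 3 unigenes, had 2266 FPKM at 15 psu and 1530 FPKM at 5 psu, both well under the 8647 FPKM of the 0 psu library.

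Markers of other cells in the liver moved unevenly. All 4 B cell markers were lower at 15 psu, with a summed level of 271 FPKM at 15 psu and 435 FPKM at 5 psu. The 3 T cell markers were lower by less, at 44.2 FPKM in sum at 15 psu and 53.0 FPKM at 5 psu. Erythrocyte markers fell short of 2-fold, with 1226 FPKM at 15 psu and 2108 FPKM at 5 psu summed over the hemoglobins and the band 3 anion exchanger. Each of the 3 erythrocyte markers found was the lower one at 15 psu. Of the cholangiocyte markers, only the epithelial adhesion molecule EPCAM had a member unigene, and it fell, with 10.3 FPKM at 15 psu, 58.7 FPKM at 5 psu and 43.1 FPKM at 0 psu (log2 ratio -2.49). Of the keratins, KRT19 lay the other way at a low level, with 4.64 FPKM in sum at 15 psu and 1.58 FPKM at 5 psu, and KRT7 had 4.99 FPKM at 15 psu and 7.67 FPKM at 5 psu. Macrophage markers summed to 686 FPKM at 15 psu and 561 FPKM at 5 psu, with 3 of 4 higher at 15 psu. The 3 stellate cell markers found were all lower, at 42.7 FPKM in sum at 15 psu and 68.2 FPKM at 5 psu. In RNA from whole tissue, fewer cells of a type and less RNA per cell cannot be told apart.

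**Figure D2:**
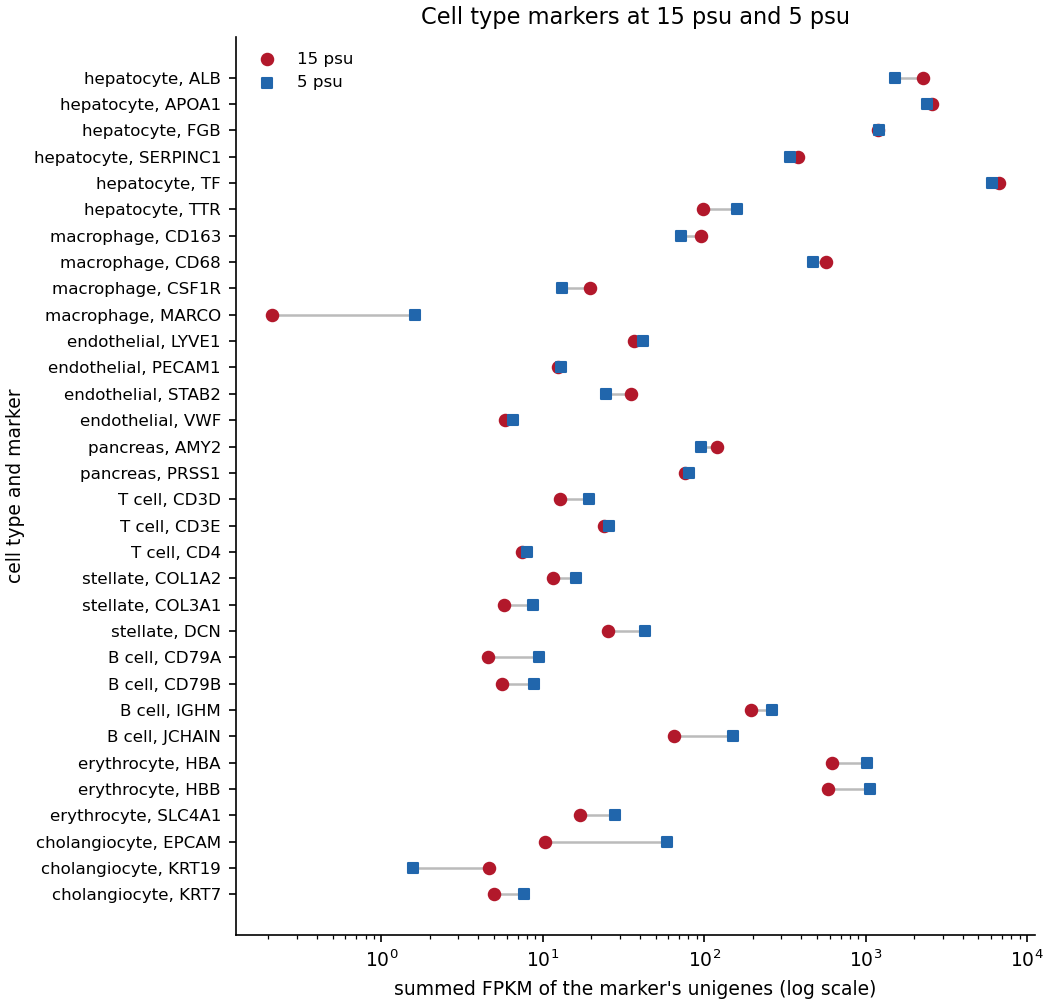
Summed FPKM of each marker's unigenes on a log axis, with circles for the 15 psu library and squares for the 5 psu library, for markers that reached 1 FPKM in either. Most hepatocyte markers lie close together, while the B cell, erythrocyte and stellate cell markers lie to the left at 15 psu.

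Immunoglobulin transcripts were the group with the widest fall. The group held 29 member unigenes named for immunoglobulin chains, V-set immunoglobulin proteins or the J chain, some only through their KEGG name. Of these, 20 fell and 1 rose, against 1.70% of all members that fell. The list was extended to the IGH, VPREB and IgY names after values were seen, so this count is not independent of the values. The median log2 ratio of the 29 was -1.25. Their summed level was 1200.0 FPKM at 15 psu, 3181 FPKM at 5 psu and 3003 FPKM at 0 psu. The 5 psu and 0 psu libraries were thus alike in sum, and the 15 psu library was the low one.

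Antibody classes took part alongside light chains. IgY is the main serum antibody of reptiles and birds. IgY(delta Fc)3, a shortened form, had 170.0 FPKM at 15 psu and 573 FPKM at 5 psu (log2 ratio -1.75). IgY6 had 31.9 FPKM at 15 psu and 182 FPKM at 5 psu (-2.51). Both forms were near their 5 psu level at 0 psu, with 467 and 142 FPKM. Secreted IgM, the first class made in a response, did not pass 2-fold, at 124 FPKM at 15 psu and 178 FPKM at 5 psu (-0.52), whereas the unigene named mIgM fell to 8.97 FPKM at 15 psu, against 20.4 FPKM at 5 psu.

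Light chain unigenes followed. An immunoglobulin lambda-like polypeptide, the most abundant chain at 15 psu, had 195 FPKM at 15 psu and 496 FPKM at 5 psu (-1.35). A kappa V-III chain had 64.1 FPKM at 15 psu and 269 FPKM at 5 psu (-2.07). The largest falls of all members were also chains of this family. An iota-like chain had 6.37 FPKM at 15 psu, 66.3 FPKM at 5 psu and 16.98 FPKM at 0 psu (-3.36), and an omega-like chain had 11.1, 103 and 48.0 FPKM in the same libraries (-3.20). For both of these, the 5 psu library was the high one and the 0 psu library lay between.

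The J chain, which joins IgM and IgA into polymers, had 64.9 FPKM at 15 psu and 152 FPKM at 5 psu (-1.22). By KEGG name, all 11 IGH unigenes and all 7 VPREB unigenes were lower at 15 psu, with 7 and 5 of them past 2-fold. Of the 29 chains, 2 lay above 0. The only rise was a heavy chain V region, with 31.6 FPKM at 15 psu, 14.3 FPKM at 5 psu and 32.1 FPKM at 0 psu (1.14). The receptor that carries polymeric antibody across epithelia, PIGR, went the other way without passing 2-fold, at 44.9 FPKM at 15 psu and 24.6 FPKM at 5 psu (0.87). The part of B cell markers in these values was not tested. CD79A, a B cell receptor subunit that was under the floor at 15 psu, had 4.6 FPKM at 15 psu and 9.55 FPKM at 5 psu (-1.04). Its partner CD79B had 5.61 FPKM at 15 psu and 8.81 FPKM at 5 psu (-0.64).

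MHC and antigen presentation genes split in both directions. Of 35 members, 5 rose and 7 fell, against 1.71% and 1.70% of all members, and the median log2 ratio was -0.04. Among 12 unigenes matched to class II molecules, which display peptides from outside the cell, 3 rose and 1 fell. Their median log2 ratio was 0.05. The 12 include the 2 unigenes of the invariant chain CD74, which is not itself a class II molecule. A DR alpha-like chain had 192 FPKM at 15 psu, 38.2 FPKM at 5 psu and 155 FPKM at 0 psu (2.32), and a DRB1-like beta chain had 82.9, 13.6 and 88.3 FPKM in the same libraries (2.60). For these chains the 5 psu library stood apart from the other two as the low one. A more abundant unigene with the name of the DR alpha-like chain did not pass 2-fold (0.63). It had 485 FPKM at 15 psu, 313 FPKM at 5 psu and 434 FPKM at 0 psu. An A-R alpha-like chain also rose, with 20.7 FPKM at 15 psu and 5.53 FPKM at 5 psu (1.89). Another DR alpha-like unigene fell, with 27.0 FPKM at 15 psu and 70.02 FPKM at 5 psu (-1.37). A unigene with the same name as the one that fell was level, at 13.1 FPKM at 15 psu and 13.4 FPKM at 5 psu (-0.03). The invariant chain CD74, which escorts class II to the lysosome, was level, with 832 FPKM at 15 psu and 771 FPKM at 5 psu for its larger unigene.

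Among 12 unigenes of class I molecules, which display peptides made inside the cell, 6 fell and 1 rose, with a median log2 ratio of -0.72 and summed levels of 1521 FPKM at 15 psu and 2193 FPKM at 5 psu. The second most abundant of them at 5 psu, named histocompatibility antigen-related, had 80.7 FPKM at 15 psu, 295 FPKM at 5 psu and 725 FPKM at 0 psu (-1.87). One class I F10-like unigene had 17.5 FPKM at 15 psu, 90.1 FPKM at 5 psu and 23.7 FPKM at 0 psu (-2.36). Another of the same name had 38.2 FPKM at 15 psu and 6.14 FPKM at 5 psu, and was listed at 0 at 0 psu (2.62). The most abundant of the 12, named class I-related gene protein-like, made up most of the summed level. It had 1103 FPKM at 15 psu and 1400 FPKM at 5 psu. Beta-2-microglobulin, the partner chain of class I, had 952 FPKM at 15 psu and 1198 FPKM at 5 psu. Both lay within 1.5-fold. Class I unigenes thus went in opposite directions, and some were level. An F10-like unigene had 61.6 FPKM at 15 psu and 62.0 FPKM at 5 psu (-0.01), and another had 50.9 and 47.9 FPKM (0.09).

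Tapasin-related protein, an editor of the peptides loaded on class I, gave the second largest rise of all members. Its unigene had 379 FPKM at 15 psu, 23.7 FPKM at 5 psu and 2.79 FPKM at 0 psu (3.99). The other tapasin and tapasin-related unigenes of the list did not pass 2-fold, and their log2 ratios lay between -0.75 and 0.08.

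**Figure D3:**
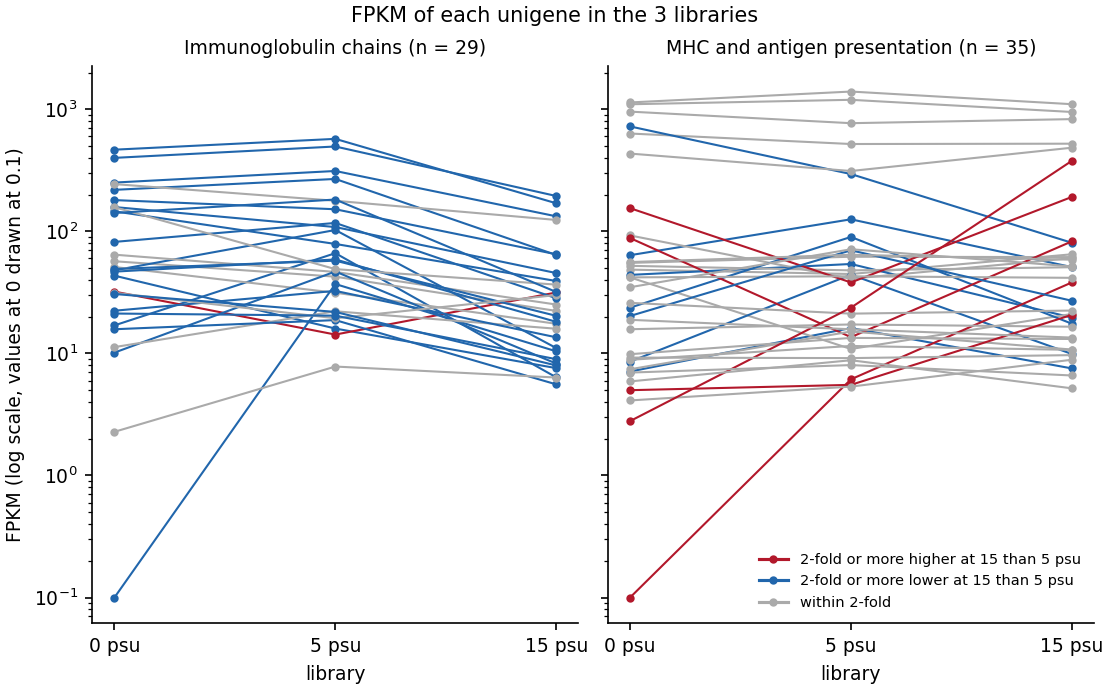
FPKM of each unigene at 0, 5 and 15 psu on a log axis, for the 29 immunoglobulin chains (left) and the 35 MHC and antigen presentation unigenes (right), coloured by whether the 15 psu level was at least 2-fold higher or lower than the 5 psu level. Of the chains, 27 lie lower at 15 psu than at 5 psu and 2 lie higher. The MHC unigenes cross, with the 4 highest at 15 psu lying within 1.5-fold of their 5 psu level.

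Several cell surface and secreted lectins of the immune system changed by large factors. C-type lectin domain family 2 member D, a ligand of natural killer cell receptors in mammals, gave both the largest rise and some of the largest falls. One unigene had 122 FPKM at 15 psu, 6.50 FPKM at 5 psu and 71.9 FPKM at 0 psu (4.21). Another had 7.24 FPKM at 15 psu, 60.6 FPKM at 5 psu and 8.02 FPKM at 0 psu (-3.05), and one more had 6.6, 51.1 and 48.4 FPKM (-2.93). Over the 16 unigenes named as member D-like, 2 rose and 2 fell, and their summed level was 1707 FPKM at 15 psu and 1772 FPKM at 5 psu.

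Olfactomedin-4, a secreted glycoprotein of neutrophils and epithelia, had 81.6 FPKM at 15 psu, 5.71 FPKM at 5 psu and 73.3 FPKM at 0 psu (3.81), so the 5 psu library was the low one. One of 4 unigenes named CD276-like, after a checkpoint molecule of the B7 family, had 58.0 FPKM at 15 psu and 8.26 FPKM at 5 psu (2.80), while the others had log2 ratios between -0.19 and 0.28. The scavenger receptor family of DMBT1, mucosal proteins that bind bacteria, lay above 0 throughout. All 6 unigenes with that KEGG name were higher at 15 psu, 3 of them past 2-fold. Their summed level was 1246 FPKM at 15 psu and 611 FPKM at 5 psu. The CD59A-like unigene, named for an inhibitor of the membrane attack complex, had 2100.3 FPKM at 15 psu, 889 FPKM at 5 psu and 1789 FPKM at 0 psu (1.24). Granulins, a growth factor precursor, had 1835 FPKM at 15 psu and 879 FPKM at 5 psu (1.06). CD59A-like, granulins, the DMBT1 family, the fish-egg lectins and other genes outside the gene lists were chosen for mention after their values were seen.

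Secreted defence proteins went both ways. A pair of fish-egg lectin-like unigenes, secreted lectins that bind sugars on bacteria in fish, fell at a high level. The larger had 1236 FPKM at 15 psu, 3578 FPKM at 5 psu and 3391 FPKM at 0 psu (-1.53), and the smaller had 403, 1508 and 1308 FPKM (-1.90). Avidin-like, named for the biotin-binding egg protein of birds, rose, with 334 FPKM at 15 psu, 42.0 FPKM at 5 psu and 38.5 FPKM at 0 psu (2.99). A second avidin-like unigene had 24.5 FPKM at 15 psu and 6.55 FPKM at 5 psu (1.89), and the remaining one was level at 9.81 FPKM at 15 psu and 8.13 FPKM at 5 psu (0.27). The fish-egg lectins thus had a low 15 psu library, and 2 of 3 avidin-like unigenes a high one.

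The acute phase list was led by a single gene. Serum amyloid A, the classical acute phase protein of vertebrate liver, had 706 FPKM at 15 psu, 78.01 FPKM at 5 psu and 39.6 FPKM at 0 psu (3.18). It was the only rise among 15 acute phase members, which had no fall and a median log2 ratio of 0.08. Pentraxin fusion protein-like came closest, with 771 FPKM at 15 psu and 404 FPKM at 5 psu (0.93). Alpha-1-acid glycoprotein-like followed, with 1551 FPKM at 15 psu and 989 FPKM at 5 psu (0.65). Hepcidin, the hormone that blocks iron export, was level, with 392 FPKM at 15 psu and 370 FPKM at 5 psu, and the 3 fibrinogen chains had log2 ratios between -0.01 and 0.19.

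Protease inhibitors rose in part. All 4 alpha-1-antichymotrypsin-like unigenes, serpins secreted in the acute phase of mammals, rose, with log2 ratios from 1.08 to 1.77 and summed levels of 375 FPKM at 15 psu, 141 FPKM at 5 psu and 278 FPKM at 0 psu. Those with ratios of 1.43 and 1.57 share an assembly number and can be parts of 1 gene. The 7 alpha-1-antitrypsin-like unigenes, inhibitors of neutrophil elastase, had no rise and no fall and summed to 3173 FPKM at 15 psu and 2938 FPKM at 5 psu. Of 16 unigenes with the KEGG name A2M, the broad protease trap alpha-2-macroglobulin, 15 lay above 0 and 2 rose. Their summed level was 5885 FPKM at 15 psu, 4303 FPKM at 5 psu and 5153 FPKM at 0 psu. The gene list of 52 coagulation proteins and protease inhibitors does not hold the antichymotrypsin-like unigenes. Over that list, 3 rose and 1 fell, against 1.71% and 1.70% of all members. A total of 37 were above 0, and the median log2 ratio was 0.23. The rises were 2 A2M unigenes and plasminogen activator inhibitor 1 (1.01). The A2M entry of that list, matched by description as well, held 24 unigenes, 20 of them above 0 and 4 below 0. The fall was a plasminogen unigene, with 9.01 FPKM at 15 psu and 19.9 FPKM at 5 psu (-1.14). It was a small part of the 3 list unigenes matched to plasminogen, plasminogen activator inhibitor 1 among them. These summed to 815 FPKM at 15 psu and 797 FPKM at 5 psu, with a median log2 ratio of 0.03.

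Complement, the plasma cascade that marks and lyses microbes, had no rise and no fall among the 49 members of its list. The shares over all members were 1.71% and 1.70%, so a list of 49 with none does not stand apart. A total of 31 lay above 0, and the median log2 ratio was 0.14. The central component C3 had 2768 FPKM at 15 psu and 1817 FPKM at 5 psu in its most abundant unigene (0.61). Of the 12 unigenes with the KEGG name C3, however, 3 lay above 0 and 9 below 0, with a median log2 ratio of -0.08. C6 of the membrane attack complex had 185 FPKM at 15 psu and 121 FPKM at 5 psu (0.61). Factor D, a protease of the alternative pathway, lay lowest in the list, at 6.15 FPKM at 15 psu and 11.7 FPKM at 5 psu (-0.91). Outside the list, a complement receptor type 2-like unigene rose, with 200.5 FPKM at 15 psu and 96.4 FPKM at 5 psu (1.06). Another of that name fell, with 9.63 FPKM at 15 psu and 19.5 FPKM at 5 psu (-1.01). Both were chosen after their values were seen. Factor H unigenes that were listed at 0 at 15 psu were kept out by the floor and are given below.

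Plasma carriers had 3 rises and 1 fall among 18 members, all 4 in unigenes named for phospholipase A2 inhibitors, proteins that snakes secrete from the liver into plasma. The most abundant had 2782 FPKM at 15 psu, 783 FPKM at 5 psu and 221 FPKM at 0 psu (1.83), so its level was higher in each saltier library. The one that fell had 7.39 FPKM at 15 psu and 17.4 FPKM at 5 psu (-1.22). Other carriers stayed within 2-fold. Alpha-2-HS-glycoprotein, which keeps calcium phosphate in solution, had 4599 FPKM at 15 psu and 6120 FPKM at 5 psu (-0.41), and vitamin D-binding protein had 43.3 FPKM at 15 psu and 77.3 FPKM at 5 psu (-0.83).

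**Figure D4:**
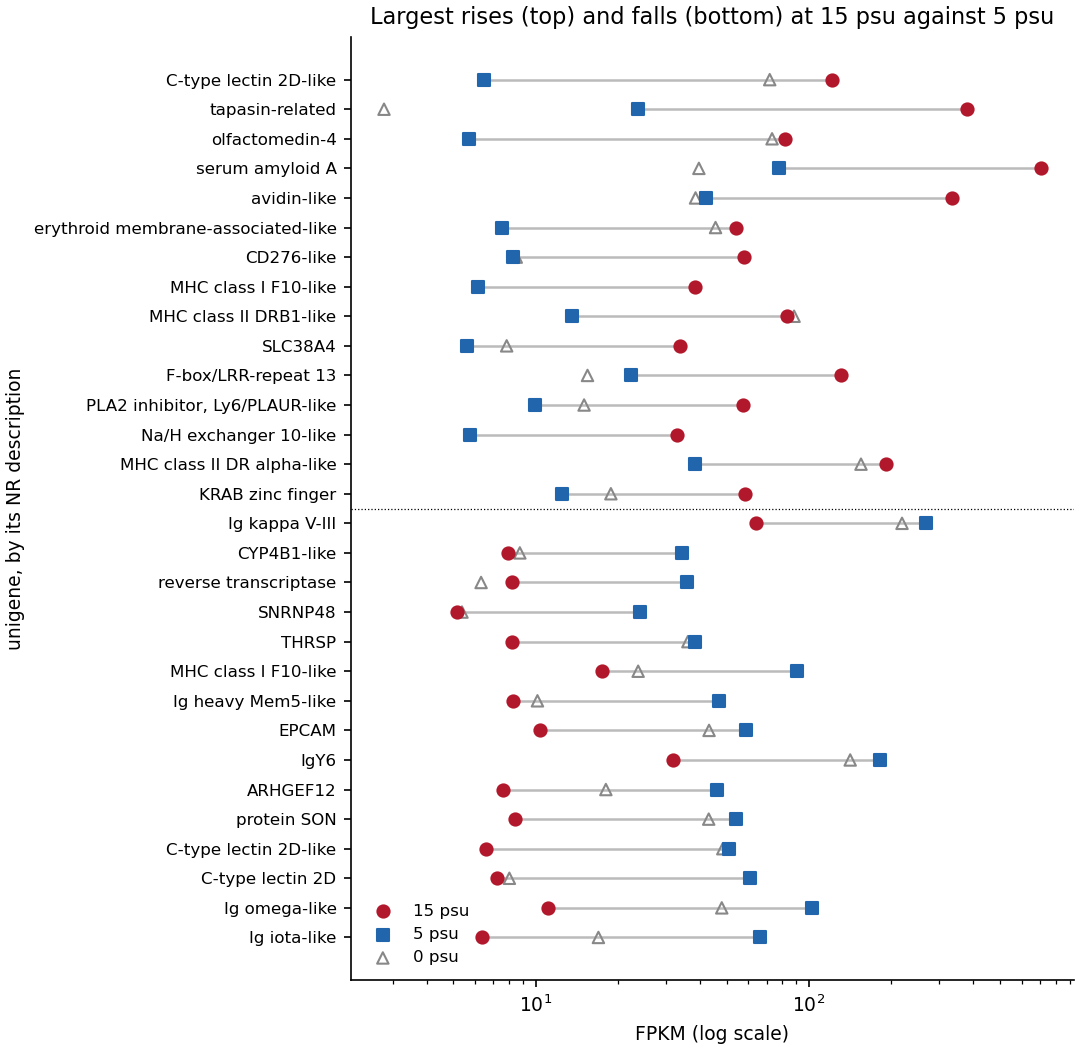
FPKM on a log axis of the 15 largest rises and the 15 largest falls among members with a description and at least 20 FPKM in the higher library, with circles for 15 psu, squares for 5 psu and open triangles for 0 psu, and no triangle where the 0 psu value was 0. For some, such as olfactomedin-4, the 0 psu level lies near that at 15 psu, and for others, such as serum amyloid A, near that at 5 psu.

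Among genes of cytokine signalling, 2 rose and 1 fell of 73, with a median log2 ratio of 0.03. Counts this small cannot be told apart from the shares of 1.71% and 1.70% over all members. SOCS3, a feedback inhibitor of cytokine receptors, had 24.0 FPKM at 15 psu and 10.2 FPKM at 5 psu (1.23). NFKBIZ, a nuclear co-activator of acute phase genes, had 11.8 FPKM at 15 psu and 5.34 FPKM at 5 psu (1.13). The fall was a CCL13-like chemokine, with 5.07 FPKM at 15 psu and 18.01 FPKM at 5 psu (-1.81).

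The 16 interferon-induced genes of the same list had no rise and no fall, a median log2 ratio of -0.24 and 5 members above 0. Outside the list, a pair of interferon-inducible genes was chosen for its falls after the values were seen. IFI6-like had 36.9 FPKM at 15 psu and 113 FPKM at 5 psu (-1.61). A second one, IFI27-like 2, had 8.95 FPKM at 15 psu and 26.6 FPKM at 5 psu (-1.56). Both encode small mitochondrial proteins induced by interferon alpha in mammals.

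Of 35 immediate early and corticosteroid response genes, 3 rose and none fell, and the median log2 ratio was 0.09. CEBPB, a transcription factor of acute phase genes, had 107 FPKM at 15 psu, 40.9 FPKM at 5 psu and 27.7 FPKM at 0 psu (1.39). FKBP5, a chaperone induced by glucocorticoids in mammals, had 47.5, 22.3 and 28.1 FPKM in the same libraries (1.09), and KLF15, another glucocorticoid target of mammals, had 23.5, 11.2 and 8.01 FPKM (1.07). All 3 were highest at 15 psu. The glucocorticoid receptor itself was level, at 12.3 FPKM at 15 psu and 14.5 FPKM at 5 psu. TSC22D3, another target of that receptor, had 98.1 FPKM at 15 psu and 80.1 FPKM at 5 psu in its larger unigene (0.29), and KLF6, an immediate early factor, lay just short of a fall at 7.59 FPKM at 15 psu and 15.1 FPKM at 5 psu (-0.98).

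Genes of the urea cycle and nitrogen disposal lay mostly below 0. Of 15 members, 13 had a negative ratio, 1 fell and none rose, and the median log2 ratio was -0.32, against -0.00 over all members. Ornithine carbamoyltransferase (OTC), which joins ornithine to carbamoyl phosphate, had 47.1 FPKM at 15 psu, 112 FPKM at 5 psu and 104 FPKM at 0 psu (-1.24). CPS1, the entry enzyme, had 272 FPKM at 15 psu and 310 FPKM at 5 psu (-0.19). ASS1 and ASL, which make and split argininosuccinate, had log2 ratios of -0.39 and -0.37, and arginase-1, which releases urea, had -0.32. These enzymes were also lower at 5 psu than at 0 psu except OTC, with ASS1 for example at 86.3 FPKM at 15 psu, against 113 FPKM at 5 psu and 180 FPKM at 0 psu.

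NAGS, which makes the activator of CPS1, went the other way, with 209 FPKM at 15 psu and 152 FPKM at 5 psu (0.46). Amino acid breakdown otherwise had 1 rise among 40 members. Serine dehydratase, which turns serine into pyruvate, had 37.4 FPKM at 15 psu and 14.4 FPKM at 5 psu (1.37). Alanine aminotransferase 2-like did not pass 2-fold, at 139 FPKM at 15 psu and 77.9 FPKM at 5 psu (0.84).

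Lipid synthesis genes had 2 falls and no rise among 26 members, with a median log2 ratio of -0.11. THRSP, a nuclear protein that promotes fat synthesis in mammalian liver, had 8.19 FPKM at 15 psu, 38.4 FPKM at 5 psu and 36.1 FPKM at 0 psu (-2.22), so the 15 psu library alone was low. A perilipin-3-like unigene, a coat protein of lipid droplets, had 9.50 FPKM at 15 psu and 20.2 FPKM at 5 psu (-1.08). G0S2, an inhibitor of fat breakdown that was chosen after its values were seen, had 158 FPKM at 15 psu and 333 FPKM at 5 psu (-1.07).

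Perilipin-2, the main droplet coat of liver, lay above 0 at 76.0 FPKM at 15 psu and 45.2 FPKM at 5 psu (0.75). Fatty acid synthase differed little, with 7.56 FPKM at 15 psu and 8.24 FPKM at 5 psu. No member passed 2-fold in the lists of 29 genes of fatty acid oxidation and ketogenesis, 24 apolipoproteins and lipid carriers, or 15 genes of cholesterol synthesis and uptake. The lowest listed carrier was liver fatty acid-binding protein, with 32.9 FPKM at 15 psu and 61.4 FPKM at 5 psu (-0.90), and the highest was apolipoprotein A-IV, with 284 FPKM at 15 psu and 162 FPKM at 5 psu (0.81). These lists are not complete. Outside them, delta(14)-sterol reductase, an enzyme of sterol synthesis, fell, with 8.32 FPKM at 15 psu and 24.1 FPKM at 5 psu (-1.52). Lipoprotein lipase rose, with 20.6 FPKM at 15 psu and 7.16 FPKM at 5 psu (1.51). Both were chosen after their values were seen.

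Glucose metabolism had neither a rise nor a fall among 32 members, with a median log2 ratio of 0.02. Glucose-6-phosphatase-like, named for the enzyme that releases glucose to the blood, had 862 FPKM at 15 psu, 514 FPKM at 5 psu and 249 FPKM at 0 psu (0.75), an order that followed salinity. The mitochondrial PCK2, which makes phosphoenolpyruvate, was level at 798 FPKM at 15 psu and 787 FPKM at 5 psu.

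Of 30 genes of ion and osmolyte handling, 2 rose and none fell, against 1.71% and 1.70% of all members. The median log2 ratio was 0.05. SLC38A4, a sodium-coupled carrier of neutral amino acids, had 33.8 FPKM at 15 psu, 5.61 FPKM at 5 psu and 7.84 FPKM at 0 psu (2.57). A unigene named sodium/hydrogen exchanger 10-like had 32.9 FPKM at 15 psu and 5.76 FPKM at 5 psu, and was listed at 0 at 0 psu (2.49). Members listed at 0 at 0 psu passed 2-fold often. Of 50 such members, 12 rose and 5 fell, against 1.71% and 1.70% of all members. The number of fragments behind their values is unknown, so this rise is uncertain. The sodium pump that sets the sodium gradient did not pass 2-fold, with 43.4 FPKM at 15 psu and 29.4 FPKM at 5 psu for its alpha subunit (0.56). Carriers and enzymes of organic osmolytes also stayed within 2-fold. The taurine transporter SLC6A6 had 28.5 FPKM at 15 psu and 27.1 FPKM at 5 psu (0.07), and the myo-inositol transporter SLC5A3 had 17.7 FPKM at 15 psu and 21.7 FPKM at 5 psu (-0.29). The aldose reductase-like unigenes, named for the enzyme that makes sorbitol, had ratios of -0.62 and -0.75, and aquaporin-1, a water channel, had 27.4 FPKM at 15 psu and 48.8 FPKM at 5 psu (-0.83).

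Of the genes that the study's authors chose to tabulate, 7 of 34 were members. They are serum amyloid A and ASS1, given above, COQ10B, given below, SIK1, SIK2, tyrosine aminotransferase and STK32A. The salt-inducible kinase SIK1 had 25.7 FPKM at 15 psu, 13.1 FPKM at 5 psu and 5.58 FPKM at 0 psu (0.97), just under 2-fold, and SIK2 had 13.6 FPKM at 15 psu and 11.0 FPKM at 5 psu in one unigene (0.30). Tyrosine aminotransferase had 7.93 FPKM at 15 psu and 6.35 FPKM at 5 psu (0.32), and the kinase STK32A had 5.72 FPKM at 15 psu and 6.31 FPKM at 5 psu (-0.14). The list was picked on these samples and is not independent evidence of a direction.

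Enzymes that process foreign compounds were mostly level. Of 34 cytochrome P450 members, 2 rose and 2 fell, against 1.71% and 1.70% of all members, with a median of -0.00. The rises were CYP2C23-like, with 81.3 FPKM at 15 psu and 32.9 FPKM at 5 psu (1.30), and CYP2C5-like, with 274 FPKM at 15 psu and 119 FPKM at 5 psu (1.21). CYP4B1-like fell, at 7.96 FPKM at 15 psu and 34.2 FPKM at 5 psu (-2.09), as did CYP2J5, at 5.83 FPKM at 15 psu and 20.6 FPKM at 5 psu (-1.81). The conjugating enzymes had no rise or fall among 32 members. All 5 unigenes with the KEGG name SULT2B1, a sulfotransferase of sterols, were above 0, with a median log2 ratio of 0.63 and none past 2-fold.

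The basic machinery of the cell barely moved. None of 96 members of the nuclear respiratory chain and TCA cycle, 41 proteasome members, 29 heat shock members, 23 members of endoplasmic reticulum folding and 21 antioxidant members passed 2-fold, and their medians lay between -0.02 and 0.11. Of 39 ribosomal protein members, 2 of low level rose and none fell, with a median of 0.04. Highly expressed ones such as RPL7A, at 5598 FPKM at 15 psu and 4153 FPKM at 5 psu (0.43), did not pass 2-fold. COQ10B, a mitochondrial protein that binds coenzyme Q and one of the genes tabulated by the study, had 175 FPKM at 15 psu, 71.8 FPKM at 5 psu and 14.8 FPKM at 0 psu (1.28).

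Zinc finger proteins of the KRAB class, DNA-binding proteins that silence mobile elements in mammals, formed the largest named family. Of 126 members with the KEGG name KRAB alone, 12 rose and 3 fell, against 1.71% and 1.70% of all members. Of the 126, 82 lay above 0, and the median log2 ratio was 0.14. With KRAB anywhere in the KEGG name 12 rose and 5 fell of 145, and over all 258 members named zinc finger protein or KRAB 14 rose and 8 fell, with a median of 0.08. The summed level of the 126 was 2511 FPKM at 15 psu, 2093 FPKM at 5 psu and 2236 FPKM at 0 psu. The largest rise among them was a unigene with 58.5 FPKM at 15 psu, 12.5 FPKM at 5 psu and 18.9 FPKM at 0 psu (2.22).

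**Figure D5:**
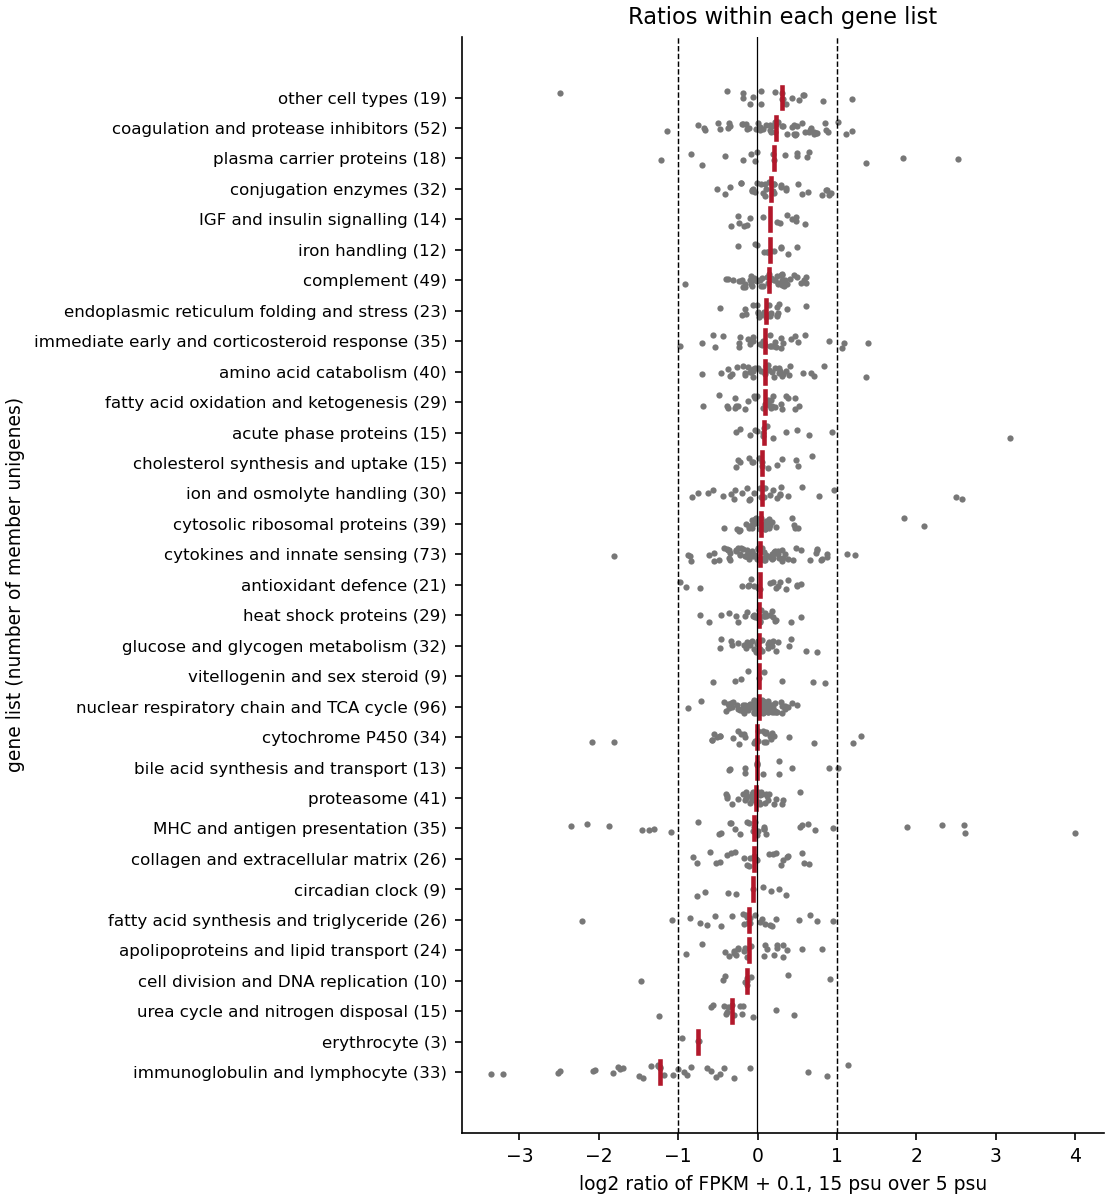
Log2 ratios of 15 psu over 5 psu for the members of each of 33 gene lists, 1 point per unigene, with the red bar at the list's median, the number of unigenes in brackets and dashed lines at 2-fold. The immunoglobulin and lymphocyte list has its median at -1.22, the erythrocyte list of 3 unigenes at -0.75 and the urea cycle list at -0.32. Most other medians lie near 0.

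The 0 psu library shows how the 5 psu and 15 psu levels sat against freshwater. Of the 129 members that rose, 73 had a 0 psu level between those at 15 and 5 psu, 41 had it below both and 15 above both. Of the 128 that fell, 79 had it between, 26 above both and 23 below both. The members nearest the threshold show how fine the line is. C12orf60 counted as a rise with 13.1 FPKM at 15 psu and 6.50 FPKM at 5 psu, and IgY1 as a fall with 39.2 FPKM at 15 psu and 78.9 FPKM at 5 psu (-1.01), whereas a BTN1A1-like unigene with a ratio of -0.99 did not.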

How the data were processed

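RNA-seq of liver was made from 3 libraries, 1 per salinity, each a mix of RNA from 3 turtles. The authors assembled reads without a genome, grouped transcripts into unigenes, and deposited FPKM values with annotation against NR and KEGG, which were used as given. The submitters' processing notes name Bowtie and RSEM, with versions not given in the sources used here. FPKM is scaled per library, so a few abundant transcripts can shift all others. The 20 rows left empty were not analysed here.

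From the deposited FPKM values, log2 ratios were computed with a pseudocount of 0.1 (Python 3.11.15, pandas 2.3.3, numpy 2.4.6; figures with matplotlib 3.10.9), which understates the change of low unigenes. The ratio and counting steps were tested on simulated data. With 1 library per salinity no test was made, and counts past 2-fold stand in its place. Members were grouped by KEGG name and by NR description where at least 4 shared one, and into 33 gene lists matched by KEGG name or description. Unigenes named in the text were the 15 largest rises and falls with a description and at least 20 FPKM in the higher library, list members past 2-fold, the highest member of each list, the 10 highest at 15 psu, genes the study tabulated, those nearest 2-fold, and unigenes of the same name as one of these. Other names were added after values were seen. Members and lists were chosen with earlier results of these data known, list patterns were narrowed after descriptions were read, and the immunoglobulin list was extended to the IGH, VPREB and IgY names after values were seen.

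Alternatives were another pseudocount, other floors, median and upper-quartile rescaling, matches to any species and 1 unigene per gene name or per list entry. No sequence of these unigenes was used here.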

Additional observations from a re-analysis of the deposited data

Results flagged for a closer look

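Unigenes kept out by the floor because 1 of both libraries was under 5 FPKM included 5 that reached 100 FPKM in the 5 psu library and were above their 0 psu level. Complement factor H, a plasma brake on complement, accounts for 4 of them, each listed at 0 at 15 psu and at 0 psu: they had 159, 148, 138 and 130 FPKM at 5 psu. A factor H unigene that is a member had 666 FPKM at 15 psu, 444 FPKM at 5 psu and 554 FPKM at 0 psu. The remaining one, an endonuclease domain-containing 1 unigene, had 2.52 FPKM at 15 psu, 162 FPKM at 5 psu and 62.3 FPKM at 0 psu.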

How the results depend on the processing

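No paired analysis was possible because each salinity had 1 library, and for the same reason no library could be left out. The floor set the counts, which follow from its construction. With at least 1 FPKM in both libraries, 547 rose and 555 fell of 14897, with at least 20 FPKM in both 34 rose and 33 fell of 2427, with at least 5 FPKM in either 1007 rose and 1171 fell of 10458, and with no floor 3595 rose and 5286 fell of 26900. With 1 unigene per gene name 89 rose and 85 fell. With a pseudocount of 1, 113 rose and 116 fell, and with upper-quartile rescaling 116 rose and 142 fell. The median of all members moved by less than 0.1 under each alternative run. Of 87 named members past 2-fold, 5 no longer passed with a pseudocount of 1, and no named ratio changed sign. Of the immunoglobulin chains, 18 of 29 fell with a pseudocount of 1, 26 of 42 with a floor of 1 FPKM and 10 of 14 with a floor of 20 FPKM.

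List medians moved by 0.1 or more in the following cases, and the cause was not tested. With a floor of 1 FPKM they were -0.032 for IGF and insulin signalling, 0.13 for antioxidant defence, 0.044 for the circadian clock, -0.082 for cytokines, -1.10 for immunoglobulin and lymphocyte genes, -0.050 for ion and osmolyte handling, 0.13 for other cell types and 0.35 for plasma carriers. With a floor of 20 FPKM they were -0.17 for IGF and insulin signalling, 0.17 for antioxidant defence, -0.28 for cell division, 0.063 for collagen and matrix, -0.85 for erythrocyte genes, 0.22 for immediate early genes and -0.012 for plasma carriers. A further run kept the most abundant unigene of each list entry, and an entry can be a whole family. With 1 unigene per entry, list medians were 0.43 for IGF and insulin signalling, 0.11 for MHC and 0.27 for acute phase proteins. They were 0.16 for antioxidant defence, -0.25 for apolipoproteins, 0.032 for coagulation and protease inhibitors and 0.31 for complement. Conjugation enzymes had -0.051, cytokines -0.067, immediate early genes 0.20, immunoglobulin and lymphocyte genes -0.64 and plasma carriers -0.012. The -0.64 is the median over 5 entries, and the immunoglobulin chain entry keeps 1 of its 29 unigenes. Pseudocount 1 and median rescaling moved no list median by 0.1.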

Other observations

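A few groups of low level that the gene lists do not hold were shifted as a whole at 15 psu. All 7 unigenes named AHNAK, a giant scaffold protein under the cell membrane, were lower at 15 psu, 1 of them past 2-fold, with a median log2 ratio of -0.77 and summed levels of 74.8 FPKM at 15 psu, 122 FPKM at 5 psu and 75.2 FPKM at 0 psu. All 4 unigenes named angiotensin-converting enzyme, after the enzyme that makes angiotensin II, were lower too. Their summed levels were 48.0 FPKM at 15 psu, 93.9 FPKM at 5 psu and 70.2 FPKM at 0 psu. These names rest on a protein match alone and are uncertain. The 1 past 2-fold (-1.54) shares its assembly number with alpha-2-macroglobulin-like unigenes. For AHNAK the 0 psu library resembled the 15 psu one, and for angiotensin-converting enzyme it lay between. The groups were picked after their values were seen.

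The 2 most abundant members past 2-fold without an informative protein description were one with the KEGG name RECQL4, with 3146 FPKM at 15 psu, 498 FPKM at 5 psu and 1763 FPKM at 0 psu (log2 ratio 2.66), and another with the KEGG name PRF1, with 1324, 155 and 125 FPKM in the same libraries (3.09). Over the 7 members with the name PRF1, 1 rose and 1 fell, and a PRF1 unigene kept out by the floor had 0 FPKM at 15 psu, against 111 FPKM at 5 psu and 202 FPKM at 0 psu.

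A class I unigene outside the floor had 210.0 FPKM at 15 psu, 0.05 FPKM at 5 psu and 260.4 FPKM at 0 psu.

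Some values repeat in steps. At 5 psu, 92 rows of the whole table held exactly 9.98 FPKM, and 73 of these were listed at 0 at 15 psu. Of the others, 4 held 14.41 FPKM at 15 psu, 2 held 28.81, 1 held 43.22 and 1 held 57.63, which are 1, 2, 3 and 4 times 14.41 within a tolerance of 0.002 on the multiple. The last is a phospholipase A2 inhibitor and Ly6/PLAUR unigene among the 15 largest rises, and 4 members that rose hold such a value. The number of fragments behind these values is not known.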
